A study of Mus musculus with 34 samples.

Results

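The nuclear-encoded respiratory chain genes were examined in epiblast stem cells (EpiSC) and in definitive endoderm (DE) made from them. Members were all rows of both raw count tables whose symbol starts with Ndufa, Ndufb, Ndufc, Ndufs, Ndufv, Uqcr, Cox4i, Cox5, Cox6, Cox7, Cox8 or Atp5, or is Sdha, Sdhb, Sdhc or Sdhd, leaving out Ndufaf assembly factors and symbols with -ps. This gave 85 of 53655 genes. By the protein each encodes, 36 belong to complex I, 4 to complex II, 8 to complex III, 20 to complex IV (Ndufa4 and Ndufa4l2 included) and 15 to complex V. The remaining 2, Atp5s and Atp5sl, carry an ATP synthase symbol but are not subunits of that enzyme.

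The study sequenced RNA from 34 mouse libraries, 17 of EpiSC and 17 of DE, from inbred strains with no engineered allele or knockout named in the labels. C57BL/6J gave 5 libraries of each cell type. PWK/PhJ gave 3 EpiSC and 4 DE libraries, and CAST/EiJ 2 and 1. There were 2 and 2 from WSB/EiJ, from NZO/HiLtJ and from NOD/ShiLtJ, and a single line stood for DBA/2J in both cell types. The sample labels give that line as DBA/2J, whereas the study's design text names 129S1/SvImJ and not DBA/2J, so its strain is uncertain. In all, 16 lines gave both libraries. EpiSC were kept on irradiated mouse embryonic fibroblasts in medium with FGF, Activin A at 20 ng/mL and a tankyrase inhibitor. DE was induced on laminin over 40 h, first 16 h with CHIR (3 uM) plus Activin A (40 ng/mL), then 24 h with more Activin A (100 ng/mL) plus the BMP receptor inhibitor LDN-193189, and CXCR4-positive cells were enriched on magnetic columns. Each replicate is a cell line, so p-values within a cell type measure the spread between lines. Fits across cell types took the 34 libraries as separate, with strain but not line as a term. Their p-values measure the spread between libraries of a strain, and line as a block was run as an alternative. EpiSC RNA went through a polyA-selecting stranded kit, whereas DE RNA was amplified for 12 cycles with a low-input kit, and DE RNA integrity spanned a lower and wider range. Cell type and kit cannot be told apart in any comparison of DE with EpiSC. A change in the share of a cell type and a change in RNA per cell cannot be told apart in these bulk libraries either.

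The respiratory chain sits in the inner mitochondrial membrane. Complexes I and II pass electrons from NADH and succinate to ubiquinone, complex III passes them to cytochrome c, complex IV passes them to oxygen, and complex V, the ATP synthase, makes ATP from the proton gradient that complexes I, III and IV build. Most subunits are encoded in the nucleus and imported, while a small core is encoded by mitochondrial DNA, and pluripotent cells are known for a strong reliance on glycolysis.

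Total counts per library ran from 25584647 to 33831684 in EpiSC and from 23772045 to 67722013 in DE. All 7 DE markers (Sox17, Foxa2, Cxcr4, Gata6, Cer1, Hhex and Gsc) were higher in DE. The list was chosen with earlier results known, and DE cells had been enriched by CXCR4. Their summed CPM (counts scaled to library size with TMM factors) ran from 32.7 to 1202 in EpiSC and from 1325 to 13545 in DE. The highest EpiSC sums, 1202 and 979, were those of the 2 CAST/EiJ libraries, against at most 341 in other strains. The part of this in the CAST/EiJ differences was not tested. The summed CPM of 6 EpiSC markers was 2610 ± 456 (SD, n = 17) in EpiSC and 3005 ± 920 (n = 17) in DE, with 2 markers higher and 4 lower in DE. Of 15 fibroblast markers 12 were lower and 1 was higher in DE, and their summed CPM ran from 97.1 to 3848 in EpiSC and from 99.3 to 1419 in DE. The part of feeder RNA in the results was not tested.

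The DE library of C57BL/6J line 2 stood apart for these genes and for short transcripts in general. Its members lay at a median of 1.36 log2 units above the mean of the other C57BL/6J DE lines, with 79 of 81 above that mean. It was the highest of the 17 DE libraries for 76 of 81 members. All genes whose mean log2 CPM reached 4 showed a median offset of 1.43 in that library below 1000 nt of union exon length, and of -0.38 at 4000 nt and above. Cytosolic ribosomal protein genes were 1.43 higher there, mitochondrial ribosomal protein genes 1.06 higher and the fibroblast markers 1.88 higher. Members had a median union exon length of 1550 nt, against 2432 nt for all annotated symbols. The counts for DE against EpiSC are therefore given below with and without this library, and with the length trend of each library removed. Folds of single members come from all libraries with the trend kept, unless stated.

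**Figure D1:**
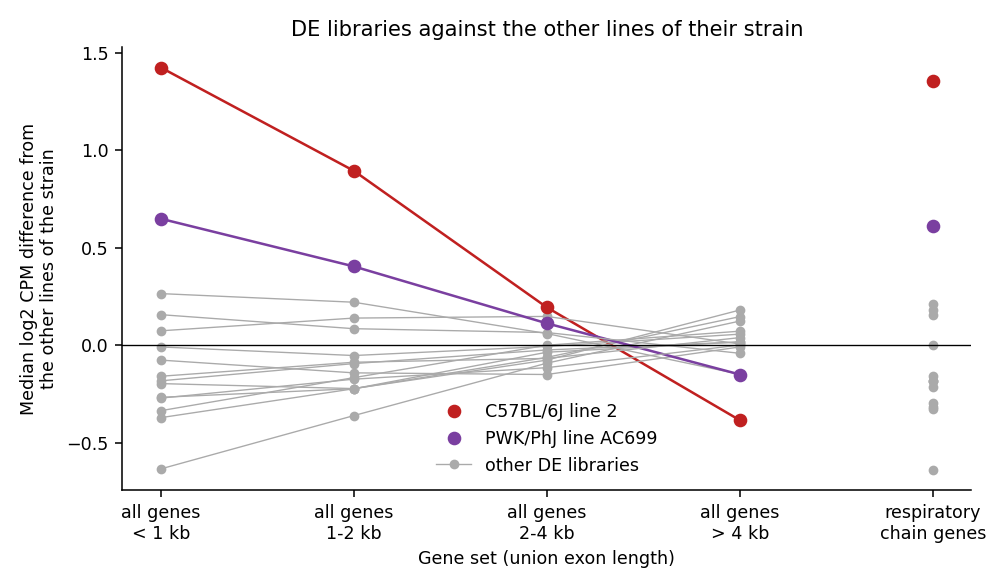
Median log2 CPM difference (y axis) of each DE library from the other lines of its strain, for all genes whose mean log2 CPM reached 4 in bins of union exon length and for the respiratory chain members (x axis). C57BL/6J line 2 runs from 1.43 in the shortest bin to -0.38 in the longest, with the members at 1.36. PWK/PhJ line AC699 is marked as well.

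Respiratory chain transcripts took a larger share of all counts in DE than in EpiSC. The share was 0.917% ± 0.035 (SD, n = 17) in EpiSC, from 0.853 to 0.987%, and 1.36% ± 0.246 (n = 17) in DE, from 1.15 to 2.16%. The DE library exceeded its EpiSC library in 16 of 16 lines, and no EpiSC library reached the lowest DE library. Without line 2 the DE share was 1.31% ± 0.138 (n = 16) and reached at most 1.66%. Without the 17 members that overlap another counted gene the shares were 0.787% ± 0.0306 and 1.14% ± 0.192, from 0.732 to 0.852% in EpiSC and from 0.981 to 1.76% in DE, again without overlap. Complex V, which holds the most abundant members, took 0.424% ± 0.0157 of counts in EpiSC and 0.627% ± 0.0839 in DE. The share was 0.203% in EpiSC and 0.309% in DE for complex I, 0.0641% and 0.0944% for complex II, 0.0824% and 0.133% for complex III, and 0.14% and 0.194% for complex IV.

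**Figure D2:**
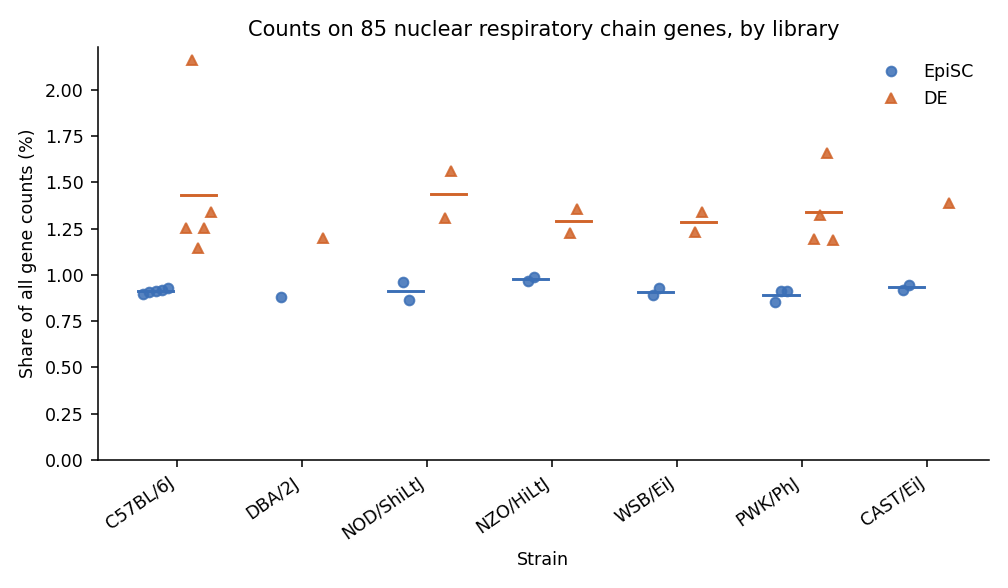
Share of all gene counts on the 85 members (y axis, percent) in each library by strain (x axis), EpiSC as circles and DE as triangles, with short bars at group means. EpiSC libraries lie between 0.853 and 0.987%, and DE libraries between 1.15 and 2.16%, the highest being C57BL/6J line 2.

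Of the 85 members 81 passed the filter on low counts, and 66 of them (81.5%) differed between DE and EpiSC by edgeR's quasi-likelihood test (adjusted p below 0.05 over all genes), against 77.2% of all genes tested. The direction was uneven. Among members 57 were higher and 9 lower in DE, 70.4% and 11.1% of those tested, whereas 37.3% of all genes were higher and 39.9% lower. The median log2 fold of the members was 0.53, against -0.06 for all genes. Of the 57 higher members 36 were higher in DE in all 16 lines, 63.2% of them, and for 23, or 40.4%, the EpiSC and DE libraries did not overlap. Of all genes tested 17.3% were called higher and were higher in all 16 lines, and 8.91% were called higher without overlap, which made 46.2% and 23.9% of the genes called higher. None of the 9 lower members was free of overlap, against 25.2% of the genes called lower (10% of those tested), and all 9 were higher in DE in line 2, which for 8 of them was the only such line. Without the line 2 DE library 54 members were higher and 9 lower, with a median of 0.40, against 36.6% and 40.7% of all genes (77.3% called). Of the 9 lower members 3 no longer overlapped then, against 26.2% of the genes called lower (10.5% of those tested). Leaving out the 2 NOD/ShiLtJ DE libraries, which had the lowest DE marker sums, gave 55 higher and 7 lower, against 36.9% and 39.9% of all genes (76.8% called).

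The share of higher genes also varied with transcript length among well expressed genes, those whose mean log2 CPM reached 4. Of all such genes from 1000 up to below 2000 nt, the bin with the most members, 71.6% were higher in DE with a median log2 fold of 0.71. There 19 of 29 members were higher with a median of 0.53, so in this bin the members did not exceed all such genes. Level was matched only by that minimum. Below 1000 nt 47.0% of the genes were higher with a median of 0.24, against 12 of 18 members and 0.44. From 2000 up to below 4000 nt the values were 61.6% and 0.45, against 15 of 19 members and 0.54. At 4000 nt and above they were 32.2% and -0.27, against 7 of 10 members and 0.57. Union exon length counts all annotated exons, so it can exceed the length of the transcripts present. In the line 2 DE library, offsets from the other C57BL/6J lines ran from -0.34 (Sdha) to 1.75 (Atp5l) for members of this bin. The median for all genes of 4000 nt and above was -0.38, so these members may not be of like transcript length. The difference between members and other genes was not tested within bins.

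Removing each library's length trend changed the split to 46 higher and 20 lower of 81, against 40.8% and 37.2% of all genes (78.1% called), with a median of 0.20 for members and 0.04 for all genes. Of the 57 members called higher 43 stayed higher, 12 were not called and 2, Ndufs6 and Cox6b1, became lower at -0.18 each. All 9 lower members stayed lower, while of the 15 members without a call 9 became lower, 3 (Atp5l, Ndufs1 and Sdha) became higher and 3 stayed without one. The trend was fitted on union exon length, so these counts depend on that measure. Members with a large value moved up, such as Atp5l (6443 nt) from 0.19 to 0.68 and Ndufab1 (6883 nt) from 0.73 to 1.27. By complex the counts without the trend were 18 higher and 7 lower of 36 in complex I, 4 and 0 of 4 in complex II, 5 and 2 of 8 in complex III, 7 and 7 of 16 in complex IV, and 11 and 3 of 15 in complex V. Without both the trend and the line 2 DE library 42 members were higher and 20 lower, against 40.9% and 37.3% of all genes (78.2% called), with a median of 0.15. The part of the library kits in these folds was not tested.

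**Figure D3:**
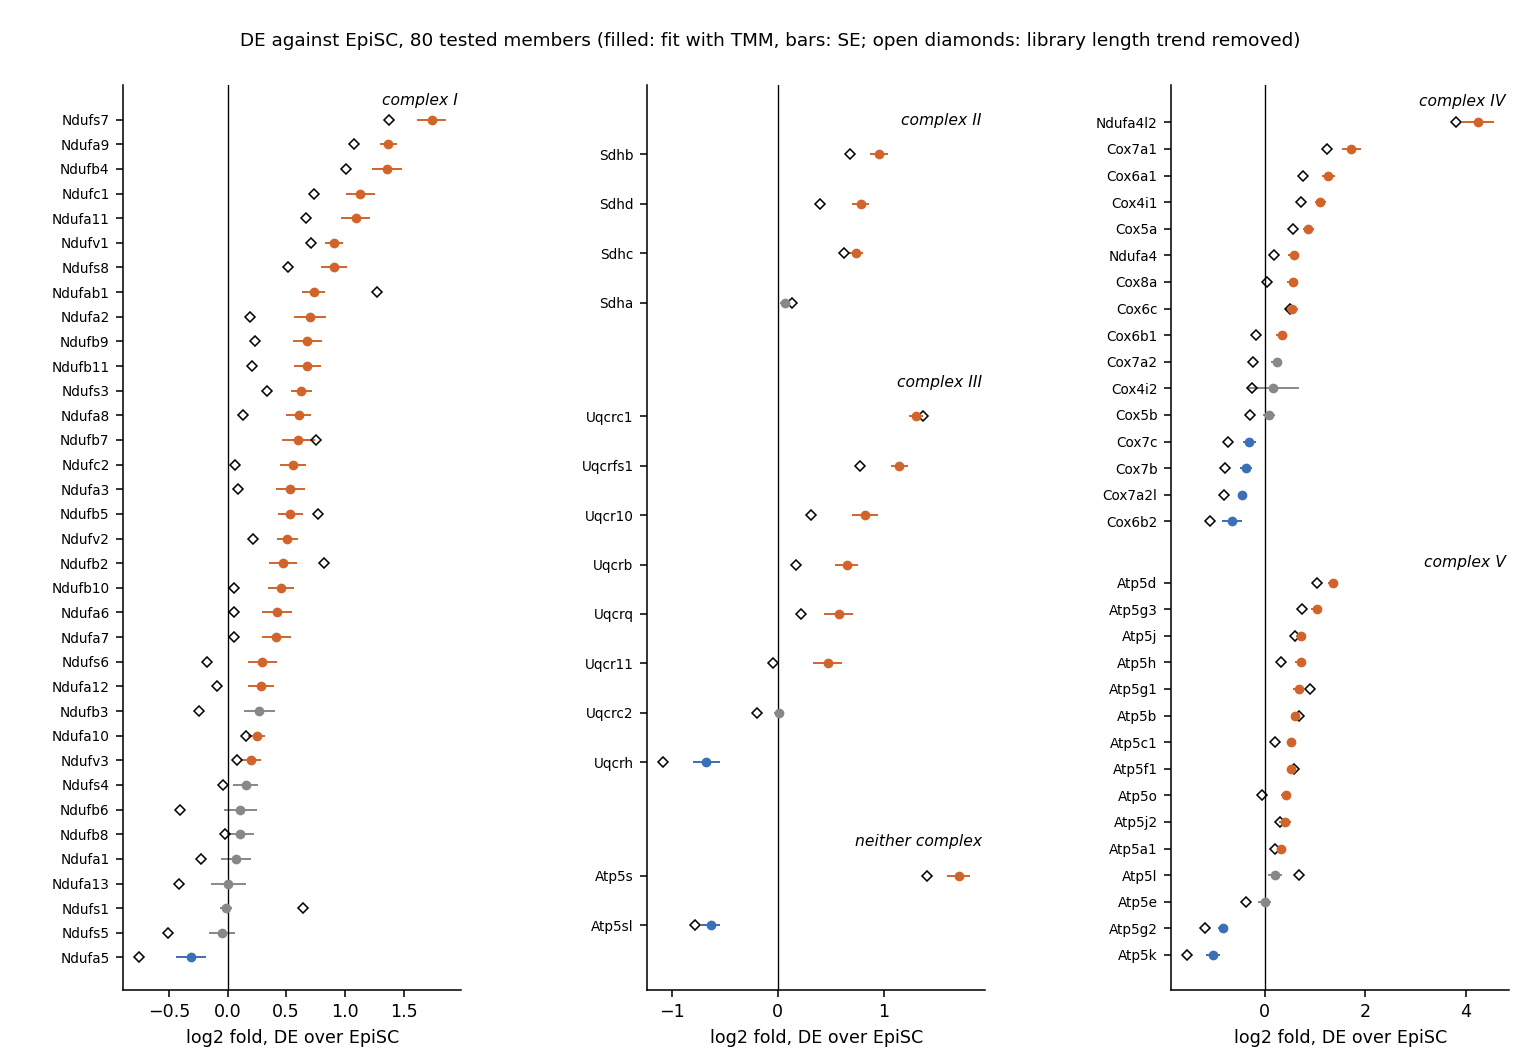
Log2 fold of DE over EpiSC (x axis) for 80 of the 81 tested members by complex (y axis), with SE bars, orange for higher, blue for lower and grey for no call. Open diamonds give the fold after the length trend of each library was removed. Most orange points move towards 0 with that step.

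Complex I, the NADH dehydrogenase, had 27 members higher, 1 lower and 8 not called of 36. Ndufs7, a core subunit that holds the last iron-sulfur cluster before ubiquinone, had the largest fold. Its CPM had a lowest value of 24.8, a median of 40.9 and a highest of 48.9 in EpiSC, and 84.8, 113 and 271 in DE. The cell types did not overlap, and the log2 fold was 1.74 ± 0.12 (SE; adjusted p = 3.78e-14), or 1.38 without the length trend. Ndufa9, an accessory subunit beside the ubiquinone site, ran from 67.3 over 73.9 to 82.5 CPM in EpiSC and from 145 over 190.3 to 314 in DE, again without overlap. Its log2 fold was 1.37 ± 0.07 (adjusted p = 1.13e-17). The only lower member was Ndufa5, an accessory subunit of the matrix arm, at 31.1, 35.2 and 49.7 CPM in EpiSC and 18.8, 26.1 and 71.6 in DE. The groups overlapped, with the DE maximum in line 2, and its log2 fold was -0.31 ± 0.13 (adjusted p = 0.0314), or -0.76 without the length trend. That call was lost in 8 of the 18 fits that left out 1 line, with adjusted p up to 0.0693. Of the other core subunits, Ndufv1 had a log2 fold of 0.91 and was higher in DE, while Ndufs1 had -0.01 and did not pass the test. Without the length trend Ndufs1, which overlaps the gene Eef1b2, was called higher at 0.64 (adjusted p = 6.3e-10).

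Complex II, succinate dehydrogenase, also serves the citric acid cycle and has no subunit encoded by mitochondrial DNA. Its 3 smaller subunits were higher in DE and its flavoprotein was not. Sdhb, the iron-sulfur subunit, ran from 80.3 over 95.3 to 105 CPM in EpiSC and from 146 over 174 to 328 in DE, a log2 fold of 0.96 ± 0.08 (adjusted p = 9.4e-12). The membrane anchors followed, Sdhd at 0.78 ± 0.08, or 0.40 without the length trend (medians 166 and 278 CPM), and Sdhc at 0.74 ± 0.06 (medians 82.8 and 132 CPM). None of these 3 overlapped between cell types. Sdha, which binds FAD, ran from 261 over 319 to 343 CPM in EpiSC and from 260.2 over 333 to 384 in DE. These ranges overlapped almost wholly, and the log2 fold of 0.07 ± 0.05 did not pass (adjusted p = 0.196), although it was 0.13 and called higher without the length trend.

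Complex III, the cytochrome bc1 complex, had 6 members higher, 1 lower and 1 not called of 8. Uqcrc1, a large core protein of the matrix side, ran from 135 over 202 to 223 CPM in EpiSC and from 314 over 449 to 642 in DE. The cell types were separate, with a log2 fold of 1.31 ± 0.07 (adjusted p = 1.98e-17) that was 1.37 without the length trend. Uqcrfs1, the Rieske iron-sulfur protein, ran from 90.9 over 96.6 to 119 CPM in EpiSC and from 166 over 211 to 388 in DE, with a log2 fold of 1.15 ± 0.08 (adjusted p = 3.21e-14). In contrast, Uqcrh, the hinge protein at the cytochrome c side, ran from 111 over 132 to 164 CPM in EpiSC and from 55.3 over 76.0 to 200.3 in DE. DE libraries lay mostly below EpiSC, with overlap also outside line 2, and the log2 fold was -0.67 ± 0.12 (adjusted p = 1.5e-05), or -1.09 without the length trend. Uqcrc2, the partner core protein of Uqcrc1, had a log2 fold of 0.01 ± 0.05 and did not pass (adjusted p = 0.79), but was called lower at -0.19 without the length trend.

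Complex IV, cytochrome c oxidase, was the most divided, with 9 members higher, 4 lower and 3 not called of the 16 that passed the filter. Cox6a1, the isoform found in most tissues, ran from 69.1 over 96.1 to 118 CPM in EpiSC and from 148 over 196 to 552 in DE, a log2 fold of 1.26 ± 0.13 (adjusted p = 2.31e-10). Cox4i1, which starts assembly together with the mitochondrially encoded core, ran from 160.2 over 175 to 202 CPM in EpiSC and from 255 over 335 to 883 in DE, a log2 fold of 1.11 ± 0.11 (adjusted p = 2.19e-10). Neither gene overlapped between cell types, and without the length trend the folds were 0.75 and 0.73. Cox4i1 shares exon sequence with the gene Emc8. The lower members were Cox6b2, Cox7a2l, Cox7b and Cox7c, with log2 folds of -0.65, -0.45, -0.38 and -0.31, which were larger in size, from -0.73 to -1.09, without the length trend. The Cox7c call was lost in 3 of 18 fits with 1 line left out, with adjusted p up to 0.0578. Cox8a, at 0.55 ± 0.11, and Ndufa4, at 0.57 ± 0.11, were called higher. Without the length trend Ndufa4 had 0.18 and Cox8a 0.04, the latter without a call (adjusted p = 0.557). Cox6b1 was called higher at 0.33 ± 0.11 and lower at -0.18 without the length trend, so its direction depends on that step. Cox7a2 had 0.23 ± 0.12 without a call, and -0.23 with one.

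Several complex IV subunits have a paralog used in particular tissues. Ndufa4l2, known as a hypoxia-induced paralog of Ndufa4, ran from 0.196 over 0.580 to 0.791 CPM in EpiSC and from 1.10 over 10.7 to 27.7 in DE. The groups did not overlap and the log2 fold was 4.24 ± 0.31 (adjusted p = 1.39e-13), although DE libraries differed widely, and reads from the overlapping gene Shmt2 cannot be told apart from its own where counting ignored strand. Cox7a1, the isoform of heart and muscle, ran from 1.73 over 2.403 to 4.86 CPM in EpiSC and from 4.05 over 6.38 to 22.3 in DE, a log2 fold of 1.72 ± 0.18 (adjusted p = 7.51e-10). Per kilobase of exon it made up 3.59% ± 1.01 (SD, n = 17) of Cox7a1 plus Cox7a2 in EpiSC and 9.15% ± 2.89 (n = 17) in DE. Cox6b2, the testis isoform, made up 8.45% ± 1.68 of its pair in EpiSC and 4.69% ± 1.98 in DE on the same scale. Cox6a2, Cox7b2, Cox8b and Cox8c did not reach the filter, with summed counts over all EpiSC libraries of 44, 67, 5 and 0 and over all DE libraries of 13, 15, 17 and 11. Cox4i2 had 56 and 98 summed counts and a log2 fold of 0.16 ± 0.51 that did not pass (adjusted p = 0.775).

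Complex V had 11 members higher, 2 lower and 2 not called of 15. Per kilobase of exon, the catalytic beta subunit gene Atp5b and the alpha subunit gene Atp5a1 were the most abundant members in both cell types, at 368 and 341 CPM per kb in EpiSC and 555 and 426 in DE, against medians over tested members of 45.2 and 62.4. Atp5b was 0.60 ± 0.05 higher on the log2 scale in DE and Atp5a1 0.32 ± 0.05 higher, the latter 0.19 without the length trend. Atp5d, the delta subunit of the central stalk, ran from 87.7 over 134 to 156 CPM in EpiSC and from 260.0 over 299 to 625.2 in DE, with no overlap and a log2 fold of 1.36 ± 0.10 (adjusted p = 1.65e-13). It overlaps the gene Cbarp. Atp5k, subunit e of the membrane part, ran from 60.7 over 68.1 to 88.0 CPM in EpiSC and from 20.1 over 29.4 to 86.2 in DE. All DE libraries but line 2 lay below every EpiSC library, and the log2 fold was -1.04 ± 0.14 (adjusted p = 6.37e-08), or -1.56 without the length trend.

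The c subunit of the ATP synthase ring is encoded by Atp5g1, Atp5g2 and Atp5g3, whose mature proteins are identical and whose import signals differ. Atp5g3 ran from 177 over 220 to 281 CPM in EpiSC and from 319 over 408 to 949 in DE, without overlap, and was 1.03 ± 0.11 higher on the log2 scale (adjusted p = 5.06e-10). Atp5g2 ran from 87.3 over 108 to 126 CPM in EpiSC and from 45.8 over 57.4 to 124 in DE, and was -0.83 ± 0.09 on the same scale (adjusted p = 2.86e-09), its groups overlapping through line 2 alone. Per kilobase of exon, Atp5g2 made up 34.6% ± 3.54 (SD, n = 17) of the 3 genes in EpiSC, from 29.9 to 41.8%, and 13.3% ± 1.02 (n = 17) in DE, from 11.5 to 16.1%. Atp5g3 made up 54.3% ± 3.56 and 74.6% ± 2.30, and Atp5g1 11.02% ± 1.43 and 12.1% ± 1.98. Atp5g2 and Atp5g3 shares did not overlap between cell types in any strain, and line 2 stood with the other DE libraries for these shares. The union exon length of Atp5g1, 4912 nt, sets its level on this scale: by CPM alone Atp5g1 made up 23.4% and 24.2%, Atp5g2 25.2% and 9.12%, and Atp5g3 51.4% and 66.7%.

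**Figure D4:**
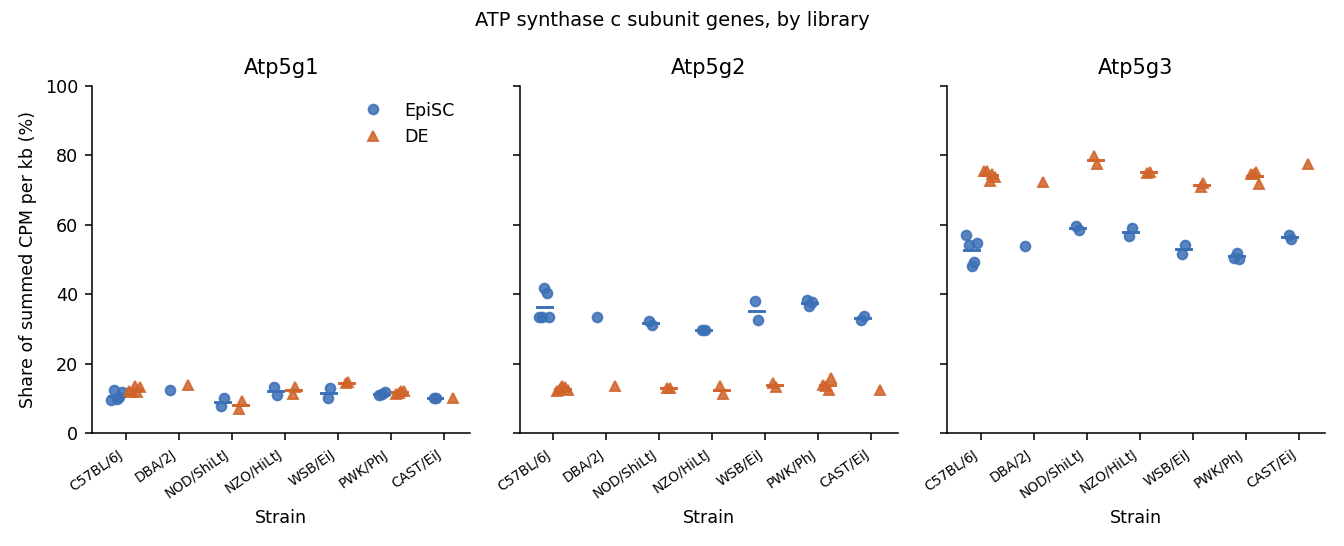
Share of the summed CPM per kb (y axis, percent) of Atp5g1, Atp5g2 and Atp5g3 in each library by strain (x axis), EpiSC as circles, DE as triangles and means as short bars. Atp5g2 lies between 29.9 and 41.8% in EpiSC and between 11.5 and 16.1% in DE.

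The pair outside the complexes went opposite ways. Atp5s, also called coupling factor B, ran from 4.51 over 6.48 to 9.35 CPM in EpiSC and from 15.0 over 20.4 to 35.6 in DE, a log2 fold of 1.71 ± 0.11 (adjusted p = 2.01e-15). Atp5sl, an assembly factor of complex I, had -0.63 ± 0.09 (adjusted p = 1.63e-07).

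Genes that work with the members were read from lists chosen with earlier results known, and their counts stand against 37.3% of all genes higher and 39.9% lower. Of 12 tested subunits encoded by mitochondrial DNA 9 were lower in DE and 0 higher, with a median log2 fold of -1.45 and 10 at an unadjusted p below 0.05. Their summed CPM was 19655 ± 2269 (SD, n = 17) in EpiSC and 6934 ± 2923 (n = 17) in DE, lower in DE in 16 of 16 lines, with kit again shared. Electron carriers had 3 of 4 higher: Etfa, of the flavoprotein that takes electrons from fatty acid oxidation, rose by 1.69 ± 0.09 and Etfdh by 1.46 ± 0.07, while cytochrome c (Cycs) had 0.06 ± 0.10 without a call. Assembly factors had 25 higher and 8 lower of 44, and citric acid cycle and pyruvate dehydrogenase genes 10 higher and 4 lower of 16. Mitochondrial ribosomal proteins had 49 higher and 9 lower of 76 with a median of 0.39. Cytosolic ribosomal proteins had 11 higher and 78 lower of 98 with a median of -1.11. The values of these lists were read with the length trend kept. Among 16 regulators 5 were higher and 8 lower, near the shares of all genes. Nrf1, which activates respiratory genes, was 0.22 ± 0.06 higher, Yy1 was -2.31 ± 0.08, and Gabpa, the ETS factor of this system, was -0.88 ± 0.06.

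Promoters of members are known for binding sites of NRF1, ETS factors and YY1, so these words were sought on both strands in RefSeq windows (GRCm38.p6) of 250 bases before to 50 after the start. A window was found for 70 members. The NRF1 word GCGCATGCG was in 8 (11.4%), against 1.95% of 27025 promoters in all and 3.63% of the promoters of 11555 genes tested. It matches both strands where it lies in the palindrome GCGCATGCGC. The ETS word CCGGAAGT was in 5 (7.14%), against 4.31% of all and 7.75% of those tested, so its share among members did not exceed that of tested genes. The YY1 word AAGATGGCG was in 8 (11.4%), against 1.64% and 3.07%. At least 1 word was in 20 members (28.6%), against 7.48% of all promoters and 13.6% of those of the genes tested. Members higher in DE held one in 14 of 47 (29.8%), lower members in 4 of 9 (44.4%) and members without a call in 2 of 12 (16.7%). Both directions are shown here, as the 250 bases before the start of 1 higher and 2 lower members, with the word and its palindrome in capitals (NRF1 in Cox6a1 and Atp5k, the reverse complement of the ETS word in Uqcrh).
Cox6a1, chr5:115348959-115349208, minus strand: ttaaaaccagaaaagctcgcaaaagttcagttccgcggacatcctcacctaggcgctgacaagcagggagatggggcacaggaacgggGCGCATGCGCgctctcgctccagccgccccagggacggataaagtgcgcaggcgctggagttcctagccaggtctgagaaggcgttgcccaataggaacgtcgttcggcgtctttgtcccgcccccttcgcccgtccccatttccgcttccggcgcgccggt
Atp5k, chr5:108434400-108434649, minus strand: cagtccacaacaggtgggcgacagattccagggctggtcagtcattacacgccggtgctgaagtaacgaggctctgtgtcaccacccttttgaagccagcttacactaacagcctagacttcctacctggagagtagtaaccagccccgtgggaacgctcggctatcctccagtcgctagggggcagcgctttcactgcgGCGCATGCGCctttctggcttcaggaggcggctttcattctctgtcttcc
Uqcrh, chr4:116075071-116075320, minus strand: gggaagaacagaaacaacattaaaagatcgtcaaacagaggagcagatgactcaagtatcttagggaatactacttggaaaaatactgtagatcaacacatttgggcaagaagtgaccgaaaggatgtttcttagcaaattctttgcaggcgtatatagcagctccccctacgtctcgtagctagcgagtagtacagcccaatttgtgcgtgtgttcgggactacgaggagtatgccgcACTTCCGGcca
The matches start 162, 50 and 11 bases before the start. Sdhb and Atp5d, the complex II and V members with the largest folds, held none of these words. Neither did Ndufs5 and Cox7a2l, which are described below for strain differences. For the complex I and III members with the largest folds, the word lies just after the start, at position 25 in Ndufs7 (YY1) and 31 in Uqcrc1 (NRF1), and 30 bases around each are given.
Ndufs7: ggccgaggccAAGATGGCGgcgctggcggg
Uqcrc1: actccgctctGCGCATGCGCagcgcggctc
The same NRF1 palindrome stood before a member that was higher in DE, Cox6a1, and one that was lower, Atp5k. Binding at these words was not tested.

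Within EpiSC, the members with the smallest strain p-values were Ndufs5, Ndufa7 and Cox7a2l, each lower in PWK/PhJ than in C57BL/6J. By the F test over the 5 strains with at least 2 lines in both cell types, 25 of 80 members (31.2%) differed, against 40% of all genes. These were 12 of 36 in complex I, 1 of 4 in complex II, 2 of 8 in complex III, 4 of 15 in complex IV and 6 of 15 in complex V. Against C57BL/6J, PWK/PhJ had 3 members higher and 11 lower (17.5% called, against 29.8% of all genes) and CAST/EiJ 7 and 11 (22.5% against 31.6%). NOD/ShiLtJ had 3 and 3 (7.5% against 12.9%), NZO/HiLtJ 4 and 0 (5% against 5.52%) and WSB/EiJ 1 and 7 (10% against 7.41%). The shares take both directions together, and the split by direction was not set against that of all genes. These comparisons share the C57BL/6J libraries. Leaving out 1 library moved the members called for PWK/PhJ from 14 to as few as 7, for CAST/EiJ from 18 to 7, for NOD/ShiLtJ from 6 to 3, for NZO/HiLtJ from 4 to between 0 and 9 and for WSB/EiJ from 8 to 2, and removing the length trend gave 9 for PWK/PhJ. In all 32 of 80 members were called in at least 1 strain, 13 in 2 or more and 5 (Cox7a2l, Ndufs4, Ndufab1, Ndufa7 and Ndufs5) in 3, against 53.8%, 23.3% and 7.59% of all genes. Of these 5, Ndufs5 alone kept all 3 calls whichever library was left out. Ndufab1 kept its call in 10 of 17 such fits for PWK/PhJ and in 11 of 17 for NOD/ShiLtJ, and Ndufa7 in 10 of 17 for WSB/EiJ. All reads were aligned to the C57BL/6J genome, and the part of mismatches to that genome in the lower counts of other strains was not tested.

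Ndufs5, an accessory subunit in the membrane arm of complex I at chr4:123712710-123718202 (GRCm38, minus strand), had the smallest F test p-value among members in both cell types (adjusted p = 2.02e-04 in EpiSC and 0.0048 in DE). Its EpiSC CPM was 35.7, 24.0, 32.7, 28.5 and 29.99 in C57BL/6J, 32.7 and 29.1 in NZO/HiLtJ, 33.8 and 34.1 in WSB/EiJ and 26.4 in DBA/2J. It was 16.4, 16.7 and 17.8 in PWK/PhJ, 15.4 and 16.2 in NOD/ShiLtJ and 12.4 and 16.5 in CAST/EiJ. The latter 3 strains lay wholly below the other 4, with log2 folds against C57BL/6J of -0.79 ± 0.13 (adjusted p = 4.29e-04), -0.91 ± 0.15 (0.0019) and -1.04 ± 0.15 (1.91e-04). In DE the C57BL/6J lines had 32.6, 56.7 (line 2), 24.1, 18.9 and 32.1 CPM, and PWK/PhJ had 10.3, 12.2, 15.7 and 8.99. PWK/PhJ was again below every C57BL/6J line, by -1.46 ± 0.27 on the log2 scale (adjusted p = 0.00164), or -1.19 without line 2. NOD/ShiLtJ had 15.2 and 18.3 CPM in DE, a log2 fold of -0.95 ± 0.34 that did not pass (adjusted p = 0.093), and the single CAST/EiJ library, which was not tested, 14.01, against 30.05 and 36.5 in NZO/HiLtJ and 31.0 and 37.4 in WSB/EiJ. The PWK/PhJ difference in DE minus that in EpiSC was -0.65 ± 0.32 and did not pass (adjusted p = 0.264). With 1 line left out it ran from -0.895 to -0.27 and was called in 0 of 18 fits, with adjusted p up to 0.579 (without line 2).

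Cox7a2l, at chr17:83501918-83517330 (GRCm38, minus strand), links complexes III and IV into supercomplexes, and C57BL/6 mice are known to carry a shorter form of its protein. EpiSC of C57BL/6J had 114, 89.9, 123, 113 and 114 CPM, PWK/PhJ 74.6, 75.6 and 68.9, and CAST/EiJ 44.9 and 41.4. NOD/ShiLtJ had 100.1 and 93.0, NZO/HiLtJ 90.8 and 88.6, WSB/EiJ 78.8 and 83.4 and DBA/2J 63.4. C57BL/6J was highest apart from line 2, which fell within the range of NZO/HiLtJ and below NOD/ShiLtJ, and CAST/EiJ was lowest. The log2 fold against C57BL/6J was -1.34 ± 0.11 in CAST/EiJ (adjusted p = 6.54e-07) and -0.57 ± 0.09 in PWK/PhJ (2.75e-04). In DE the C57BL/6J lines had 79.1, 150 (line 2), 60.3, 84.3 and 74.9 CPM and PWK/PhJ 46.4, 47.7, 57.4 and 50.7. These did not overlap, at -0.81 ± 0.20 (adjusted p = 0.0124), while the F test over strains in DE did not pass (adjusted p = 0.0765). Without line 2 the fold was -0.56 and the F test passed (adjusted p = 0.0265).

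Other named differences in EpiSC were as follows. Ndufa7, an accessory subunit of the matrix arm, had 77.6 to 108 CPM in the 5 C57BL/6J lines, 53.2, 56.0 and 62.7 in PWK/PhJ, 71.9 and 57.9 in NOD/ShiLtJ and 62.9 and 68.7 in WSB/EiJ. Each of these 3 strains lay below all C57BL/6J lines, although the NOD/ShiLtJ call was lost without line AC595 (adjusted p = 0.197). PWK/PhJ was -0.66 ± 0.11 on the log2 scale (adjusted p = 5.52e-04). Uqcrc1 had 135, 142 and 147 CPM in PWK/PhJ, below every library of the other strains, which had 164 to 223. The F test gave an adjusted p of 0.00276 for Uqcrc1, 0.00242 for Ndufv3 and 0.0029 for Cox7c. Ndufv3, at the NADH-binding end of complex I, was -0.54 ± 0.09 in WSB/EiJ (adjusted p = 0.00185). Ndufa11, of the membrane arm, went the other way, at 0.68 ± 0.12 in PWK/PhJ (adjusted p = 9.84e-04) and 0.50 ± 0.14 in CAST/EiJ (0.0153), with reads that may be shared with the overlapping gene Vmac. Cox7a1 was 0.96 ± 0.23 in CAST/EiJ (adjusted p = 0.00572), Atp5h 0.40 ± 0.07 in WSB/EiJ (0.00213) and Ndufab1, the mitochondrial acyl carrier protein, 0.38 ± 0.08 in NZO/HiLtJ (0.0148). Leaving out 1 library ended several of these calls. The adjusted p was 0.15 for Cox7a1 without CAST/EiJ line WM080, 0.0547 for Atp5h without WSB/EiJ line AC635, and up to 0.157 for Ndufab1 without either NZO/HiLtJ line. It was up to 0.13 for Ndufa11 in CAST/EiJ without either line of that strain. Cox7a1 and Ndufa11 were also called higher in DE than in EpiSC. The CAST/EiJ EpiSC libraries had the highest DE marker sums of their cell type, 1202 and 979 CPM, against at most 341 in other strains. The part of this in the 2 CAST/EiJ calls was not tested.

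**Figure D5:**
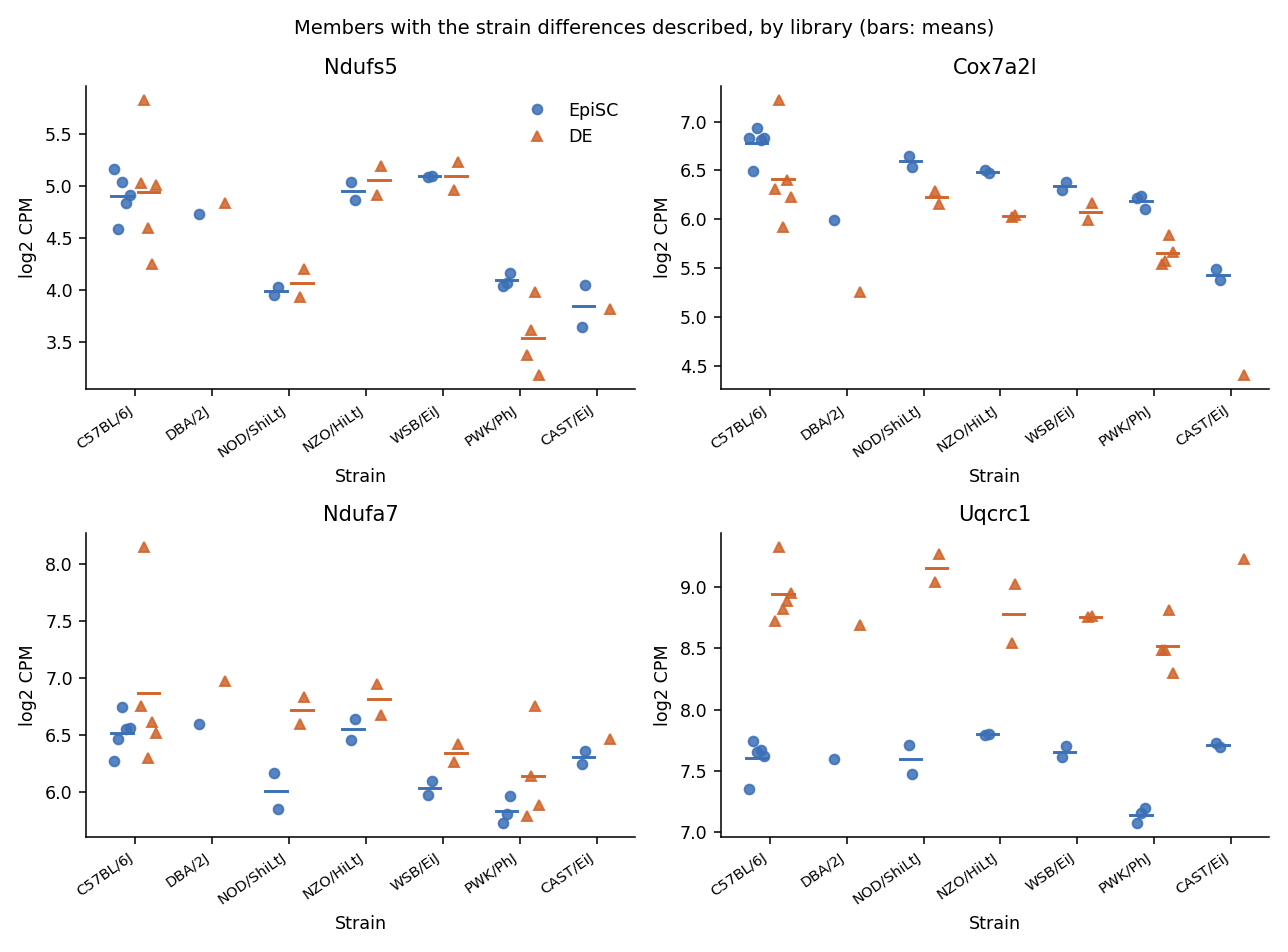
Log2 CPM (y axis) of Ndufs5, Cox7a2l, Ndufa7 and Uqcrc1 in each library by strain (x axis), EpiSC as circles, DE as triangles and means as short bars. Ndufs5 lies below all C57BL/6J libraries in NOD/ShiLtJ, PWK/PhJ and CAST/EiJ in both cell types, although in DE the NOD/ShiLtJ difference did not pass (adjusted p = 0.093) and CAST/EiJ has 1 library.

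Strain calls among members were few in DE. The F test called 1 of 81 members (1.23%), Ndufs5, against 22.3% of all genes, with 5 at an unadjusted p below 0.05 and 3 called by DESeq2. PWK/PhJ had 0 members higher and 4 lower than C57BL/6J (17.1% of all genes called): Ndufs5, Cox7a2l, Atp5s at -0.60 ± 0.17 (adjusted p = 0.0285) and Sdhc at -0.50 ± 0.14 (0.0271). The calls on Atp5s and Sdhc were each lost in 4 of 17 fits with 1 library left out, with adjusted p up to 0.0843 and 0.0878. NOD/ShiLtJ, NZO/HiLtJ and WSB/EiJ had 0 called by edgeR, with 5, 2 and 1 at an unadjusted p below 0.05, 1, 0 and 0 called by DESeq2, and 11.4%, 1.41% and 2.28% of all genes called. The 2 NOD/ShiLtJ DE libraries had the lowest DE marker sums of the DE libraries, 1325 and 3585 CPM. They also had the highest fibroblast marker sums in DE, 1419 and 1246 CPM. The part of these in the NOD/ShiLtJ differences was not tested. The spread between lines of a strain is given as a description. For genes whose mean log2 CPM reached 4, the median within-strain SD was 0.45 for members and 0.30 for all genes in DE, against 0.12 and 0.15 in EpiSC. Without the line 2 DE library it was 0.25 for members and 0.24 for all genes in DE.

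Leaving out the C57BL/6J line 2 DE library changed the DE strain counts. The F test then called 2 members, Ndufs5 and Cox7a2l, against 27.5% of all genes. PWK/PhJ had the same 4 members lower and 2 higher, Ndufa11 at 0.61 (adjusted p = 0.0239) and Ndufa13 at 0.73 (0.0339), against 19.7% of all genes called. The median log2 fold over members in PWK/PhJ went from -0.24 to 0.09. PWK/PhJ line AC699 stayed in this fit. Its DE share of counts on the members was 1.66%, against 1.19% in AC695, 1.32% in AC698 and 1.19% in AC705. Leaving out AC699 together with line 2 was not tested. NOD/ShiLtJ had 2 higher, Cox6b2 and Uqcrq, against 15.9% of all genes. Cox6b2 was among the members lower in DE than in EpiSC, and NOD/ShiLtJ had the lowest DE marker sums. The part of those sums in the 2 calls was not tested. NZO/HiLtJ and WSB/EiJ had 0 called by edgeR, with 1 and 2 at an unadjusted p below 0.05, against 1.83% and 2.9% of all genes, and DESeq2 was not run without this library. Their medians went from -0.21 to 0.12 and from -0.24 to 0.07.

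Whether strain effects changed with the cell type was tested by the interaction of strain and cell type. It was called for 0 of 81 members, against 10.7% of all genes, with 1 at an unadjusted p below 0.05 and 0 called by DESeq2. The PWK/PhJ effect in DE minus that in EpiSC was called for 0 of 81 members, against 6.67% of all genes, with 3 at an unadjusted p below 0.05 and 2 called by DESeq2. The smallest p belonged to Cox4i2, at very low counts (adjusted p = 0.0562), followed by Atp5s at -0.61 ± 0.24 (0.138) and Sdhc at -0.39 ± 0.17 (0.201).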

How the data were processed

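RNA-seq read counts per gene were deposited by the authors as 1 table per cell type, with raw whole-number counts. Reads were aligned to mm10 with STAR 2.4 and counted with HTSeq 0.6.1, per the submitters' processing notes. No strand setting or annotation release is given in the sources used here, so 17 members are marked uncertain because an exon overlaps a gene with at least 5% of their counts. Near-identical copies (at least 95% identity over 50% of the transcript) exist for 7 members, none with that share of counts. Depth was 23772045 to 67722013 counts per library. Members and gene lists were chosen with earlier results of these data known.

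Genes reaching 10 counts in 3 or more of the fitted libraries were tested with edgeR 4.0.16 (R 4.3.3, limma 3.58.1), using TMM scaling, the robust quasi-likelihood F test and Benjamini-Hochberg adjustment over all genes tested at 0.05. DE was compared with EpiSC with strain as a term in 34 libraries. Strains were compared within each cell type, and strain by cell type in all libraries. CPM used TMM-scaled library sizes, with a prior count of 2 on the log2 scale. Scripts were tested on simulated data. Alternatives were DESeq2 1.42.0, RLE factors, no filter, no strain term, C57BL/6J only, each line left out, and the line as a replicate block. After seeing the data, a length trend per library (lowess, span 0.3) and 2 sets of left-out DE libraries were added, 1 of them also for the DE strain counts and spread. Lengths and positions came from GENCODE M21 and promoters from RefSeq GRCm38.p6.

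The EpiSC and DE libraries of a line pair by origin, since the labels name the same cell line. The correlation of their deviations from the strain means ran from 0.001 to 0.147 over 14 lines, with 6 over 0.1. In strains with 2 lines both lines give the same value by construction, so the 14 values are not independent. No 2 libraries of a group agreed within counting noise. Named genes were chosen by rule: per complex the 2 called members with the largest fold in each direction with a mean log2 CPM from 4 up, the tissue isoform pairs and all complex II subunits, the 6 smallest F test p-values per cell type, the 3 largest called folds per direction and strain, and the 4 smallest interaction p-values. Other members were named after their values were seen. The values of 1 member are not reported here, though the counts include it.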

Additional observations from a re-analysis of the deposited data

Results flagged for a closer look

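Of 69 groups of 4 or 5 libraries examined, for 22 genes and the share of counts, 12 held a library whose gap to the others was large for the group's range, where chance gives about 1 in 20. The groups share the same libraries and are not independent, so the 12 cannot be weighed against that rate. The DE library of C57BL/6J line 2 accounted for most. Its share of counts on the members was 2.165%, against 1.147 to 1.341% in the other 4 lines. Its log2 CPM was 9.088 for Atp5h, 6.071 for Atp5l, 7.72 for Ndufa10 and 7.71 for Ndufa11. It was 6.164 for Ndufa5, 8.148 for Ndufa7, 7.155 for Ndufab1 and 6.954 for Ndufb3, each above all other C57BL/6J DE lines.

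The EpiSC library of C57BL/6J line 2 was low for Cox7a2l, at a log2 CPM of 6.492 against 6.816 to 6.938, and for Ndufa3, at 4.548 against 4.971 to 5.134. Among PWK/PhJ DE libraries, line AC695 had the highest Cox7a1, at 3.097 against 2.398 to 2.497.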

How the results depend on the processing

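The counts for DE against EpiSC had more members higher than lower under every alternative run: 63 to 68 members were called with 1 line left out, and RLE factors and DESeq2 each gave 57 higher and 9 lower. With the line as a replicate block 64 members were called, 55 higher and 9 lower, with a median log2 fold of 0.46, and the block gave 0 calls in both interaction tests, so it changed no other call. Lower members numbered 2 with C57BL/6J only and 20 without the length trend, with or without the line 2 DE library. The median fell to 0.15 without both. Without the length trend 13 members changed sign with a call in at least 1 of the fits. Cox6b1 went to -0.18 (-0.22 also without the line 2 DE library), Cox7a2 to -0.23 (-0.28), Ndufs6 to -0.18, Ndufb3 to -0.24, Ndufb6 to -0.40, Cox5b to -0.30, Ndufa1 to -0.23, Ndufa13 to -0.41, Uqcrc2 to -0.19 and Ndufs1 to 0.64. Atp5o, Ndufa12 and Uqcr11 lost their calls at -0.06, -0.09 and -0.05. The share of counts without uncertain members was 0.787% in EpiSC and 1.14% in DE.

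With 1 line left out, called members numbered 18 to 32 for the EpiSC F test, 7 to 17 for PWK/PhJ (7 without AC695, 8 without AC698), 7 to 20 for CAST/EiJ (10 without WM078, 7 without WM080), 3 to 7 for NOD/ShiLtJ (3 without AC576, C57BL/6J line 4 or line 44), 0 to 9 for NZO/HiLtJ (9 without C57BL/6J line 2, 1 without AC653, 0 without AC671) and 2 to 8 for WSB/EiJ (3 without AC627, 2 without AC635). In DE they numbered 1 to 2 for the F test (2 without C57BL/6J line 2 or 4), 2 to 6 for PWK/PhJ (2 without AC695 or AC698), 0 to 2 for NOD/ShiLtJ (2 without C57BL/6J line 2, 1 without line 44) and 0 for NZO/HiLtJ and WSB/EiJ. The interaction F test had 0 throughout, and the PWK/PhJ interaction 0 to 1 (1 without line 2).

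DESeq2 called 11 members for NOD/ShiLtJ and 12 for NZO/HiLtJ in EpiSC, 3 by the DE F test, 1 for NOD/ShiLtJ in DE and 2 for the PWK/PhJ interaction. Without the filter 3 were called for NOD/ShiLtJ in EpiSC, 6 by the DE F test, 3 for NOD/ShiLtJ and 1 for WSB/EiJ in DE, and 1 by the interaction F test. Without the length trend 9 were called for PWK/PhJ in EpiSC, 2 by the DE F test and 2 for NOD/ShiLtJ in DE. The cause was not tested. Of 583 values of named genes under alternatives 532 kept direction and call, 34 lost the call, 13 gained one and 4 reversed.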
